A study of Pleurotus tuoliensis with 9 samples.

Results

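The unigenes described here encode proteins of mRNA splicing, 3' end formation, cap metabolism and mRNA decay, together with proteins named for an RNA-binding domain. They were chosen by the wording of the protein description deposited with each unigene: a description naming splicing, the spliceosome, snRNPs, LSM, mRNA, RNA binding, polyadenylation or the exosome was taken, and a description that also named rRNA, the nucleolus, a helicase, translation, a kinase or mitochondria was left out. This gave 55 of the 13953 unigenes in the file, and 54 of them were tested. RNA-seq had been run on mycelia of *Pleurotus tuoliensis*, an edible mushroom, strain Zhongnong No.1, to find which transcripts change under continuous heat stress (HS). All plates held potato dextrose agar, were kept in the dark at 25 °C at first and were inoculated from 1 initial plate. The control group (CK) stayed at 25 °C, the moderate heat stress group (MHT) was moved to 32 °C and the severe heat stress group (SHT) to 36 °C. Mycelia were collected on Day 13, after several days of continuous heat in MHT and SHT. Each group had 3 libraries from separate plates of this 1 strain, so the tests measure the spread between plates and not between strains.

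Before a fungal mRNA can be translated its precursor receives a cap at the 5' end, loses its introns on the spliceosome and is cleaved and given a poly(A) tail. The spliceosome is assembled from small nuclear ribonucleoproteins (snRNPs): U1 and U2 mark the intron ends, and U4, U6 and U5 then join as a preformed tri-snRNP. Finished mRNAs are bound by poly(A)-binding proteins, and they are removed by decapping followed by digestion from the 5' end, or by the exosome from the 3' end.

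The names are those of the best protein match. Of the 55 members, 37 matched a *Pleurotus* protein, 13 a protein listed under *Salix suchowensis*, a willow, and 5 a protein of another species, so a name gives a likely family and not a tested function. The members carried 39 different descriptions, with the matched species counted as part of each. Several neighbouring IDs share 1 description and may be pieces of 1 gene. Joining consecutive IDs of identical description left 48 loci. Neighbours of 1 name matched to different species, such as gene_1009 and gene_1010, were not joined, so the number of genes may be lower. Levels are given in CPM, counts rescaled to a common library size with TMM factors, a unit that ignores transcript length, so levels are compared between groups for 1 unigene and not between unigenes. A differentially expressed gene (DEG) had to pass 2 limits in edgeR's quasi-likelihood test: a Benjamini-Hochberg adjusted p under 0.05, and a log2 fold change beyond 1 in either direction, called the minimum fold here.

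Libraries held 3925786 to 6180053 counts. A pair of libraries stood apart from their groups. MHT3 lay at a distance of 75.6 and 71.3 from MHT1 and MHT2 in log2 CPM over all tested unigenes, against 43.4 between those 2, and it was nearer to SHT2, at 61.2. SHT2 lay at 65.9 and 67.6 from SHT1 and SHT3, which were 43.0 apart. Among the CK libraries the distances were 62.6 (CK1 to CK2), 54.1 (CK1 to CK3) and 51.5 (CK2 to CK3). Among the tested members, 3 were lower in MHT3 by more than 1 log2 unit than in the mean of MHT1 and MHT2, and 1 was lower in SHT2 by that much than in the mean of SHT1 and SHT3; over all tested unigenes the shares were 7.17% and 4.82%. The part these libraries play in the results is given where leaving them out changed a call. Transcripts of hydrophobins, which coat fungal hyphae, and of cerato-platanins were detected in every library. Of their 6 unigenes 5 were tested, and 4 (80.0%) were lower DEGs in SHT&CK, where 10.9% of all tested unigenes were. DESeq2 called 3 lower. For gene_6238, a lower DEG in edgeR, the SHT and CK libraries overlapped. Bulk RNA cannot tell fewer cells of a kind from less RNA per cell.

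The members split in both directions, and their DEG counts are given beside the shares over all tested unigenes. In MHT&CK 1 member was a higher DEG and 0 were lower DEGs in edgeR, where 3.85% and 4.32% of all tested unigenes were called higher and lower. DESeq2 also called 1 and 0. An unadjusted p under 0.05 in edgeR was found for 16 of the 54 tested members and for 4040 of all 13018 tested unigenes. In SHT&CK 4 members were higher and 4 lower DEGs, 7.41% of the tested members in each direction, where 10.8% and 10.9% of all unigenes were called. Both edgeR shares of members were lower than this background, a difference that was not tested and that rests on few members. DESeq2 called 4 higher and 6 lower members in SHT&CK, and 1412 higher and 1446 lower among all 13018 tested unigenes. Leaving out 1 library in edgeR gave 2 to 5 higher and 3 to 7 lower members. An informative description was one without the words hypothetical, uncharacterized, unnamed or predicted protein. Among tested unigenes with such a description, 11.4% were called higher and 8.4% lower in SHT&CK. In SHT&MHT edgeR and DESeq2 called 0 members in either direction, and the background was 2.79% higher and 2.87% lower. There 14 members and 3768 of all 13018 tested unigenes had an unadjusted p under 0.05 in edgeR. MHT&CK and SHT&CK share the CK libraries.

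With the adjusted p alone and no minimum fold, 2 members were higher and 6 lower in MHT&CK (edgeR; background 7.5% and 7.41%), 8 higher and 12 lower in SHT&CK (20.4% and 19.7%), and 0 higher and 2 lower in SHT&MHT (4.82% and 4.93%); at this threshold DESeq2 called 4 higher and 3 lower members in SHT&MHT. The SHT&MHT count turned on MHT3: without it 10 members were higher and 4 lower by adjusted p in edgeR. Over all tested unigenes the SHT&MHT DEGs rose too, from 363 higher and 373 lower to 650 and 778 without MHT3. The share of all unigenes by adjusted p alone was not counted in that setting. The 6 lower in MHT&CK were 11.1% of the tested members and the 12 lower in SHT&CK 22.2%, and the higher members were 3.7% and 14.8%. In either direction 14.8% and 37.0% of members passed, against 14.9% and 40.1% of all tested unigenes. Among tested unigenes with an informative description, 8.11% were higher and 5.72% lower in MHT&CK. In SHT&CK these shares were 23.0% and 16.2%. In total 21 members passed this threshold in at least 1 comparison and 33 in none. The 3 libraries of both groups did not overlap for 6 higher and 13 lower members in MHT&CK (18.4% and 19.1% of all unigenes), for 16 higher and 15 lower in SHT&CK (27.6% and 28.3%), and for 7 higher and 5 lower in SHT&MHT (15.4% and 12.6%). The median log2 fold change of the tested members was -0.08 in MHT&CK, 0.13 in SHT&CK and 0.03 in SHT&MHT, where that of all tested unigenes was 0.00, 0.01 and 0.00. Among tested unigenes with an informative description it was 0.06, 0.10 and 0.03. The median absolute change was 0.31, 0.47 and 0.17, against 0.36, 0.55 and 0.35 over all tested unigenes. Replicates of the members varied by a median of 13.7% in CK, 17.9% in MHT and 12.7% in SHT (CV, n = 3 each), against 15.1%, 20.9% and 17.9% over all tested unigenes.

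**Figure D1:**
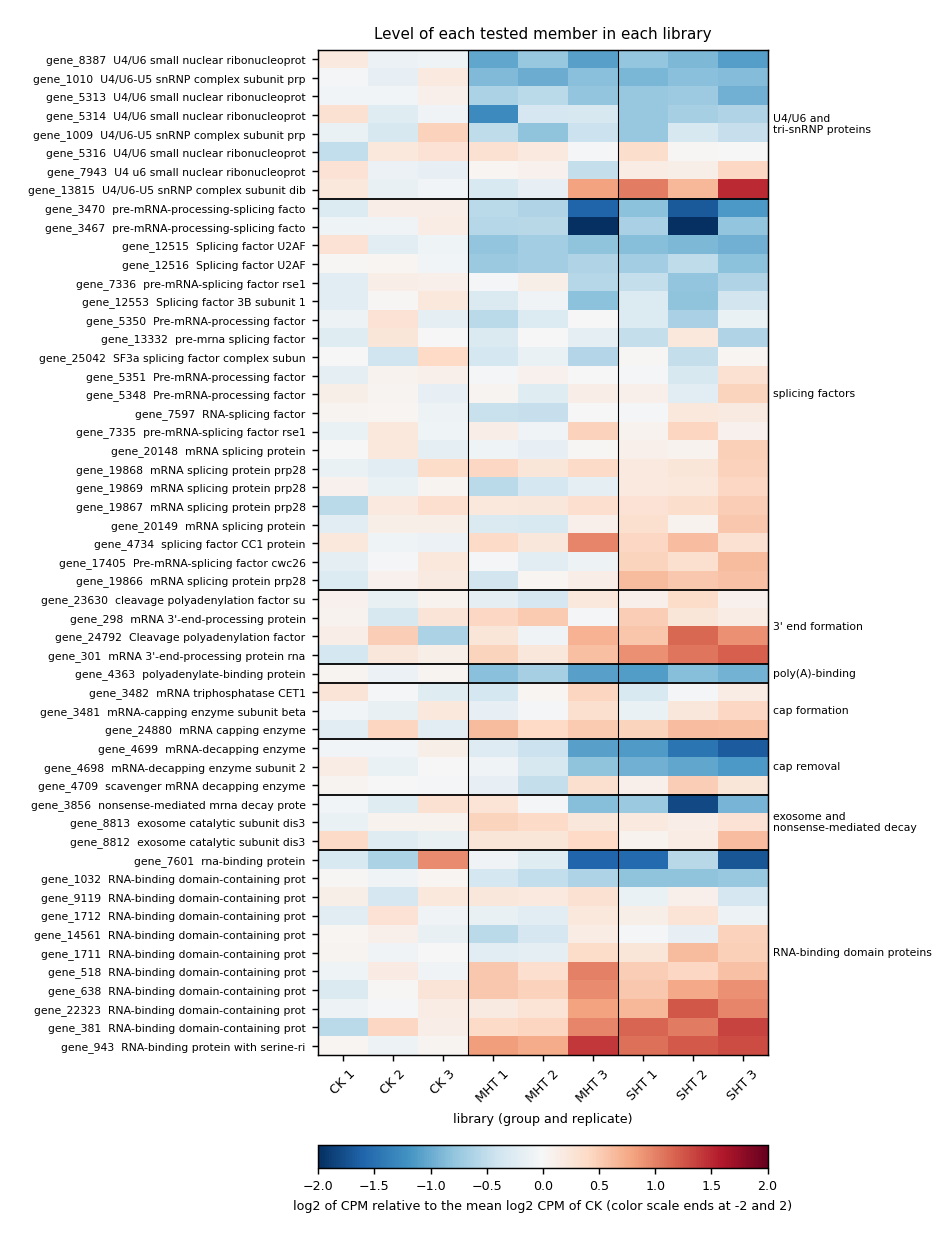
Log2 CPM of each of the 54 tested members (down the page, grouped by role) in each of the 9 libraries (across), relative to the mean log2 CPM of its CK libraries; red is higher and blue lower than CK. Of the 8 U4/U6 and tri-snRNP members, 5 are blue in all MHT and SHT libraries, while gene_943 and gene_301 are red in all of them.

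Of the 8 U4/U6 and tri-snRNP unigenes, 5 had negative log2 fold changes in both comparisons against CK. The median log2 fold change of the role was -0.60 for MHT&CK, -0.61 for SHT&CK and 0.04 for SHT&MHT. By adjusted p 3 (37.5%) were lower in each comparison against CK, where 7.41% and 19.7% of all tested unigenes were. Several of the 8 share a name and have neighbouring numbers, so they may be pieces of fewer genes. The member of this role with the most counts was gene_1010, named prp31, the protein that holds U4/U6 and U5 together in the tri-snRNP. It had 161, 147 and 187 CPM in CK, 88.9, 82.4 and 91.6 CPM in MHT and 87.6, 91.9 and 90.0 CPM in SHT. All 6 heat-treated libraries lay below the lowest CK library, and SHT&MHT gave 0.03. The log2 fold change was -0.91 ± 0.157 in MHT&CK (SE, edgeR adjusted p = 0.00295) and -0.88 ± 0.157 in SHT&CK (edgeR adjusted p = 0.00128). Its neighbour gene_1009, also named prp31, had 28.1, 24.6 and 42.4 CPM in CK, 21.8, 17.7 and 22.9 CPM in MHT and 18.3, 24.8 and 22.4 CPM in SHT, with values of -0.61 and -0.54 that did not pass (edgeR adjusted p = 0.099 and 0.0827).

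The name prp4 was shared by 4 unigenes. It is given to a WD-repeat protein of the U4/U6 snRNP in *Saccharomyces cerevisiae*. Of these, gene_8387 had 18.7, 15.0 and 15.3 CPM in CK, 7.92, 9.56 and 7.63 CPM in MHT and 9.51, 8.71 and 7.59 CPM in SHT. No heat-treated library reached the lowest CK library, and MHT and SHT overlapped. It fell by 0.96 on the log2 scale in MHT&CK (SE 0.22, edgeR adjusted p = 0.0129) and by 0.92 in SHT&CK (SE 0.219, edgeR adjusted p = 0.00629). It crossed the minimum fold in MHT&CK without CK2, CK3 or MHT2, at -1.02, -1.01 and -1.07, and in SHT&CK without SHT1, at -1.01. The second, gene_5313, had 31.3, 31.1 and 34.9 CPM in CK, 20.8, 22.2 and 18.7 CPM in MHT and 19.2, 19.5 and 16.7 CPM in SHT, again with no overlap against CK. Its log2 fold changes were -0.66 (MHT&CK) and -0.82 (SHT&CK; edgeR adjusted p = 0.0267 and 0.00389). The MHT&CK adjusted p of gene_5313 went above 0.05 when any 1 of CK1, CK2, CK3, MHT1 or MHT3 was left out, with edgeR values of 0.0557 to 0.106 at log2 fold changes of -0.69 to -0.60. The neighbouring gene_5314 stood at -0.60 and -0.68 without passing, and gene_5316, with the same description, at 0.11 and 0.08.

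One tri-snRNP member went the other way. The dib1 unigene, gene_13815, named for a small protein of the tri-snRNP, had 17.0, 13.3 and 14.2 CPM in CK, 11.9, 13.2 and 25.9 CPM in MHT and 30.1, 23.3 and 41.7 CPM in SHT. All SHT libraries lay above all CK libraries, and within MHT only MHT3 did. It was a higher DEG in SHT&CK at 1.10 ± 0.31 (SE, edgeR adjusted p = 0.0148) and lay at 0.19 in MHT&CK. The SHT&CK call was lost without CK2, CK3 or SHT3, at log2 fold changes of 1.03, 1.07 and 0.84 (edgeR adjusted p = 0.0516, 0.055 and 0.0722). In SHT&MHT it stood at 0.91 (edgeR adjusted p = 0.0754), at 1.34 without MHT3 (edgeR adjusted p = 0.00503) and at 1.08 without SHT2 (edgeR adjusted p = 0.0429). The last member of the role, gene_7943, a U4/U6 protein without a subunit name, stood at -0.10 and 0.23.

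Among the 22 splicing factors, 21 were tested and their medians were -0.16 in MHT&CK, 0.13 in SHT&CK and 0.01 in SHT&MHT. Both unigenes named U2AF, the factor that recognises the 3' splice site, were lower at both temperatures. For gene_12515 the levels were 160.2, 113 and 123 CPM in CK, 75.4, 81.0 and 75.1 CPM in MHT and 72.4, 69.9 and 67.4 CPM in SHT. For gene_12516, its neighbour, they were 64.2, 65.2 and 60.9 CPM in CK, 37.8, 39.3 and 41.6 CPM in MHT and 39.3, 44.5 and 35.9 CPM in SHT. Every CK library exceeded every heat-treated library for both unigenes, which carry 1 description and may be parts of 1 gene. The changes of gene_12515 were -0.77 ± 0.17 in MHT&CK and -0.92 ± 0.17 in SHT&CK (SE, edgeR adjusted p = 0.0103 and 0.00157), and those of gene_12516 -0.68 ± 0.162 and -0.67 ± 0.162 (edgeR adjusted p = 0.015 and 0.00666). Without CK2 gene_12515 was a lower DEG in SHT&CK, at -1.02.

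The lower splicing factor that met the DEG threshold in edgeR was gene_3470, described as a pre-mRNA-processing-splicing factor. It had 36.6, 48.3 and 48.5 CPM in CK, 30.4, 29.2 and 14.5 CPM in MHT and 25.0, 13.8 and 19.8 CPM in SHT. All heat-treated libraries were below CK, and MHT3 and SHT2 were the lowest of their groups. In SHT&CK it fell by 1.18 on the log2 scale (SE 0.291, edgeR adjusted p = 0.00728), and by 1.00 without SHT2 (edgeR adjusted p = 0.026), which is under the minimum fold. The nearby gene_3467, of the same name, had 17.0, 17.2 and 20.1 CPM in CK, 12.2, 12.3 and 4.22 CPM in MHT and 11.5, 2.84 and 10.4 CPM in SHT. It stood at -1.12 in SHT&CK (edgeR adjusted p = 0.0675), and MHT3 and SHT2 were again its lowest libraries. In DESeq2 it was a lower DEG in SHT&CK, at -1.14 (DESeq2 adjusted p = 0.0328). Without MHT3 the edgeR fit gave the same -1.12 and a passing value (edgeR adjusted p = 0.03).

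The other components of early spliceosome assembly gave smaller values. Of 2 neighbouring unigenes named rse1, in *S. cerevisiae* the name of an SF3b subunit that acts at the branch site, gene_7336 had 38.6, 31.1 and 35.2 CPM in SHT, against 45.7, 58.9 and 57.4 CPM in CK (-0.63, edgeR adjusted p = 0.0306), while gene_7335 stood at 0.20. The call on gene_7336 was lost without CK2, CK3, SHT2 or SHT3 (edgeR adjusted p = 0.0798 to 0.0965). SF3B1, the large SF3b subunit (gene_12553), had 90.9, 63.3 and 85.2 CPM in SHT and 94.0, 112 and 127 CPM in CK, without overlap, and its change of -0.48 did not pass (edgeR adjusted p = 0.102). The SF3a subunit gene_25042 stood at -0.38 in MHT&CK and -0.15 in SHT&CK.

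The name prp28 was shared by 4 neighbouring unigenes; this is the helicase that in *S. cerevisiae* helps U6 replace U1 at the 5' splice site. All 4 had positive log2 fold changes in SHT&CK, from 0.27 to 0.57, though the libraries of gene_19867 and gene_19868 overlapped CK. Of the 4, 1 passed. This was gene_19866, which had 35.6, 33.1 and 34.2 CPM in SHT, against 19.0, 24.2 and 26.0 CPM in CK (0.57, edgeR adjusted p = 0.0369), and its adjusted p went above 0.05 without any 1 of the 3 CK libraries, the 3 SHT libraries or MHT2 (edgeR adjusted p = 0.0517 to 0.128). The unigene named cwc26, which belongs to the yeast RES complex of pre-mRNA retention and splicing, gene_17405, had 60.9, 55.9 and 69.2 CPM in SHT, against 39.0, 44.1 and 51.7 CPM in CK, and did not pass (0.46, edgeR adjusted p = 0.0517). An mRNA splicing protein without a further name, gene_20149, stood at -0.16 in MHT&CK and 0.32 in SHT&CK. The remaining 7 splicing factors did not pass in any comparison and lay between -0.29 and 0.56 in MHT&CK and between -0.35 and 0.45 in SHT&CK.

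**Figure D2:**
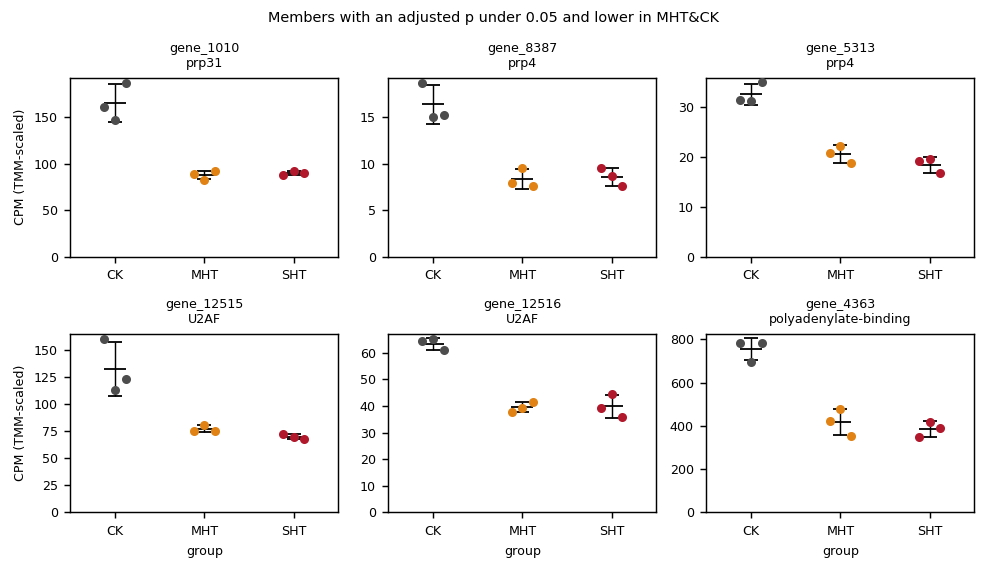
CPM of the 6 members that were lower by adjusted p in MHT&CK, in the 3 groups; points are libraries, and the bar is the mean with the SD of 3 libraries, on axes that start at 0. In each panel all CK points lie above all MHT and SHT points, as for gene_1010, at 147 to 187 CPM in CK and at most 91.9 CPM in heat-treated mycelia.

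The poly(A)-binding protein, which coats the mRNA tail and acts in translation and mRNA stability, was among the members with the most counts. Its unigene, gene_4363, had 781, 696 and 784 CPM in CK, 422, 477 and 355 CPM in MHT and 348, 419 and 391 CPM in SHT. Heat-treated libraries did not overlap CK. It fell by 0.85 on the log2 scale in MHT&CK (SE 0.184, edgeR adjusted p = 0.0097) and by 0.97 in SHT&CK (SE 0.185, edgeR adjusted p = 0.00188), and it crossed the minimum fold in SHT&CK without CK2 or SHT2, at -1.02 and -1.04. With the prp31, prp4 and U2AF unigenes above, it completes the 6 members that were lower by adjusted p in MHT&CK. All 6 were also lower in SHT&CK, which uses the same CK libraries; this is 11.1% of the tested members, and 6.07% of all tested unigenes were lower in both. In MHT&CK the adjusted p of gene_8387, gene_12515, gene_12516 and gene_5313 rose above 0.05 without CK1, which left 2 of the 6, and with both MHT3 and SHT2 left out all 6 were still lower in both.

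In 3' end formation the 4 members had positive log2 fold changes in SHT&CK, with a median of 0.55. By adjusted p 2 (50.0%) were higher, where 20.4% of all tested unigenes were. The rna14 unigene, gene_301, named for a scaffold of cleavage factor IA in *S. cerevisiae*, had 25.8, 38.6 and 35.8 CPM in CK, 44.7, 38.4 and 50.2 CPM in MHT and 61.8, 69.3 and 75.2 CPM in SHT. The SHT libraries lay above all others, and MHT lay between with 1 library inside the CK range. It was a higher DEG in SHT&CK at 1.04 ± 0.197 (SE, edgeR adjusted p = 0.00179), and without CK1 or SHT3 it stood at 0.88 and 0.96, under the minimum fold. A cleavage polyadenylation factor, gene_24792, had 13.8, 20.8 and 17.8 CPM in SHT and 10.3, 13.3 and 6.11 CPM in CK. Its value of 0.81 passed narrowly (edgeR adjusted p = 0.0499) and was lost without CK1, CK3, MHT1, MHT2, SHT2 or SHT3, at 0.55 to 0.84 (edgeR adjusted p = 0.0547 to 0.193), while without CK2 it stood at 1.11 (edgeR adjusted p = 0.0277). Fip1 (gene_23630), which tethers poly(A) polymerase, and gene_298 stood at 0.18 and 0.28 in SHT&CK.

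Cap formation showed no passing member. The capping enzyme gene_24880 had 12.4, 14.0 and 13.9 CPM in SHT, above the 7.91, 12.3 and 7.86 CPM in CK, and did not pass (0.51, edgeR adjusted p = 0.0991). The subunit beta gene_3481 and its neighbour gene_3482, named CET1, both names of the RNA triphosphatase that starts cap synthesis in yeast, lay between -0.06 and 0.18 in both comparisons.

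Of the 3 cap removal unigenes, 2 (66.7%) were lower DEGs in SHT&CK, where 10.9% of all tested unigenes were. The decapping subunit 2 unigene, gene_4698, is named for the catalytic subunit that cuts the cap off an mRNA. It had 277, 228 and 249.6 CPM in CK, 238, 201 and 143 CPM in MHT and 129, 122 and 113 CPM in SHT. Its neighbour gene_4699, described as an mRNA-decapping enzyme, had 22.0, 22.0 and 24.9 CPM in CK, 19.1, 17.1 and 10.8 CPM in MHT and 10.4, 8.33 and 7.22 CPM in SHT. For both, all SHT libraries were below all others, and MHT3 was the MHT library nearest to SHT. In SHT&CK gene_4698 fell by 1.05 (SE 0.198, edgeR adjusted p = 0.00166) and gene_4699 fell by 1.40 on the log2 scale (SE 0.251, edgeR adjusted p = 0.00128); without CK1 gene_4698 stood at -0.99, under the minimum fold. The study itself named both from these libraries, so they are no independent evidence of a direction, and as neighbours they may be parts of 1 gene.

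These decapping unigenes were also the only members with an adjusted p under 0.05 in SHT&MHT, at -0.68 and -0.86 (edgeR adjusted p = 0.0473 and 0.0494). Both values passed narrowly and went above 0.05 when any 1 library other than MHT3 was left out, with edgeR values from 0.0586 to 0.208. Without MHT3 gene_4699 was a lower DEG at -1.06 (edgeR adjusted p = 0.00648). The scavenger decapping enzyme gene_4709, which clears the cap fragments left by decay, had 16.7, 22.0 and 18.5 CPM in SHT, above the 16.1, 15.5 and 15.1 CPM in CK, and did not pass (0.29, edgeR adjusted p = 0.332).

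A unigene described as a nonsense-mediated mRNA decay protein, a pathway that removes mRNAs with early stop codons, was a lower DEG in SHT&CK. This unigene, gene_3856, had 26.7, 23.5 and 34.5 CPM in CK, 33.7, 27.2 and 15.5 CPM in MHT and 16.7, 7.96 and 14.6 CPM in SHT. SHT lay below CK without overlap, while MHT3 lay inside the SHT range and MHT1 and MHT2 inside the CK range. The change was -1.10 ± 0.322 (SE, edgeR adjusted p = 0.0174), and without SHT2 or CK3 it was -0.85 and -0.93 and did not pass (edgeR adjusted p = 0.0548 and 0.0769). In SHT&MHT it stood at -0.96 (edgeR adjusted p = 0.0752) and at -1.21 without MHT3 (edgeR adjusted p = 0.0105). Both unigenes named dis3, the exosome ribonuclease, had positive log2 fold changes in SHT&CK without passing. For gene_8813 the levels were 56.9, 54.6 and 60.7 CPM in SHT, against 45.1, 52.1 and 52.0 CPM in CK (0.21), and gene_8812 stood at 0.29, with overlap.

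**Figure D3:**
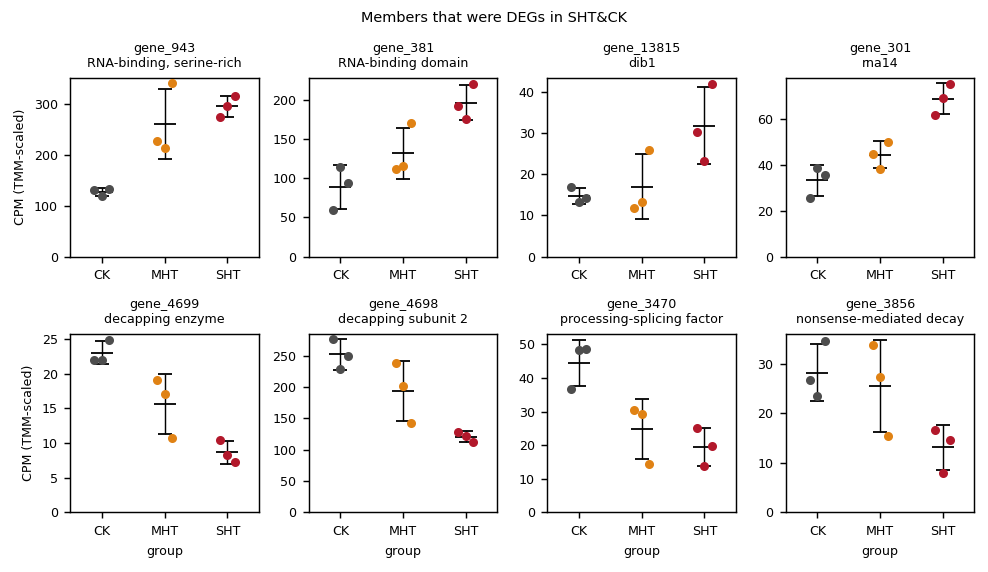
CPM of the 8 members that were DEGs in SHT&CK, in the 3 groups; points are libraries, and the bar is the mean with the SD of 3 libraries, on axes that start at 0. The upper panels show the 4 higher and the lower panels the 4 lower members. SHT and CK do not overlap in any panel, and MHT3 is the MHT library furthest in the SHT direction in each, for example at 143 CPM for gene_4698.

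The 11 RNA-binding domain proteins had a median of 0.23 in MHT&CK and of 0.46 in SHT&CK. The one DEG of both comparisons was gene_943, described as an RNA-binding protein with a serine-rich domain; in mammals a protein of that name, RNPS1, joins splicing and the exon junction complex. It had 131, 119 and 133 CPM in CK, 228, 214 and 341 CPM in MHT and 274, 297 and 316 CPM in SHT. All heat-treated libraries exceeded CK and MHT3 was the highest library of all. The log2 fold change was 1.03 ± 0.197 in MHT&CK (SE, edgeR adjusted p = 0.00516) and 1.21 ± 0.197 in SHT&CK (edgeR adjusted p = 0.00075). In MHT&CK it stood at 0.79 without MHT3 and at 0.98 without CK2, under the minimum fold, with edgeR adjusted p of 0.00657 and 0.026.

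The second higher DEG of this role, gene_381, had 59.2, 114 and 94.3 CPM in CK, 112, 116 and 169.8 CPM in MHT and 192, 176 and 219.9 CPM in SHT. SHT lay above all other libraries, and MHT overlapped CK. In SHT&CK it stood at 1.13 ± 0.246 (SE, edgeR adjusted p = 0.00371), and at 0.90 without CK1, its lowest library. Just under the minimum fold, gene_22323 had 56.7, 84.7 and 70.7 CPM in SHT, against 33.4, 35.0 and 39.7 CPM in CK (0.97, edgeR adjusted p = 0.0043), and it was a DEG without CK3 or without SHT1, at 1.05 and 1.09.

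Smaller changes were seen in gene_638 and gene_518. In SHT gene_638 had 30.7, 35.4 and 39.8 CPM, against 17.3, 21.4 and 25.1 CPM in CK (0.72, edgeR adjusted p = 0.0172; 0.0725 without CK1 and 0.0708 without SHT3). In MHT gene_518 had 420.1, 363 and 579 CPM, against 273, 323 and 274 CPM in CK (0.65, edgeR adjusted p = 0.0474). Without MHT3 gene_518 stood at 0.43 (edgeR adjusted p = 0.107), and its call was also lost without CK1, CK2, CK3, MHT1, SHT1 or SHT3 (edgeR adjusted p = 0.0612 to 0.163). Both lay above CK in every heat-treated library.

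The RNA-binding member with the most counts, gene_1032, went down: it had 1205, 1125 and 1215 CPM in CK, 929, 843 and 773 CPM in MHT and 674, 674 and 702 CPM in SHT. The 3 groups did not overlap. The change was -0.79 ± 0.18 in SHT&CK (SE, edgeR adjusted p = 0.00482) and -0.48 in MHT&CK, which did not pass (edgeR adjusted p = 0.0911). The member with the fewest counts, gene_7601, had 1.23, 2.46 and 1.11 CPM in SHT and 2.93, 2.33 and 6.99 CPM in CK, with overlap. Its value of -1.37 in SHT&CK did not pass (edgeR adjusted p = 0.0581). In DESeq2 gene_7601 was a lower DEG at -1.38 (DESeq2 adjusted p = 0.0462). In edgeR it passed without CK2, MHT3 or SHT2, at -1.67, -1.37 and -1.80 (edgeR adjusted p = 0.0361, 0.0378 and 0.0397). Of the remaining RNA-binding members, gene_1711 stood at 0.46 in SHT&CK (edgeR adjusted p = 0.0748), and gene_14561, gene_1712 and gene_9119 lay between -0.12 and 0.10.

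**Figure D4:**
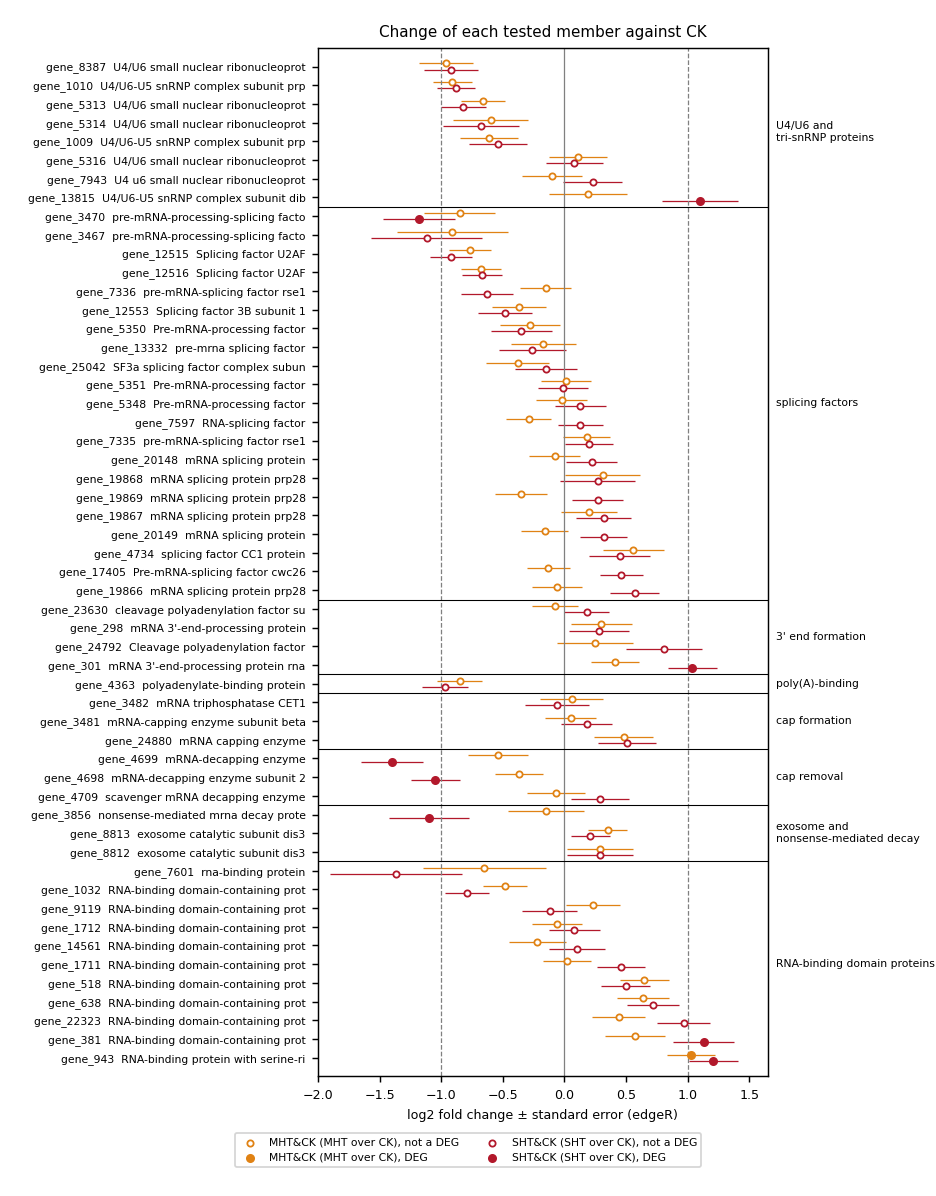
Log2 fold change with its standard error for each of the 54 tested members (down the page, grouped by role) in MHT&CK and SHT&CK; filled points are DEGs and dashed lines mark the minimum fold. For SHT&CK 8 points and for MHT&CK 1 point are filled, from gene_4699 at -1.40 to gene_943 at 1.21.

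The reads of all tested members together came to 4359, 4285 and 4534 CPM in CK, 3793, 3646 and 3937 CPM in MHT and 3615, 3710 and 3899 CPM in SHT. Without gene_1032 and gene_4363, chosen after their values were seen, the sums were 2373 to 2535 CPM in CK, 2326 to 2809 CPM in MHT and 2593 to 2806 CPM in SHT. Without these unigenes the MHT sums spanned the CK range and all SHT sums lay above it. Both unigenes taken out had fallen, at -0.79 and -0.97 in SHT&CK. Taking them out raises the SHT sums relative to CK, so this order follows in part from the choice. In all, 7 members differed by less than 0.2 in all 3 comparisons; those with the most counts were gene_7335, one of the rse1 unigenes, a pre-mRNA-processing factor (gene_5348) and gene_3481. Levels of gene_7335 were 75.3, 95.3 and 77.3 CPM in CK, 89.9, 77.9 and 113 CPM in MHT and 86.5, 111 and 87.4 CPM in SHT, with overlap, and its largest difference was 0.198, in SHT&CK. The pre-mRNA-processing factor had 35.7, 34.3 and 29.5 CPM in CK, 34.2, 27.8 and 36.2 CPM in MHT and 35.4, 28.4 and 45.2 CPM in SHT. One member, gene_3493, described only as a splicing factor, was not tested: it had 2, 1 and 0 counts in CK, 1, 0 and 1 in MHT and 2, 0 and 0 in SHT, too few to show any difference.

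Related unigenes outside the rule are given for comparison. The wording that removed helicases and ribosomal RNA left out 4 unigenes, 3 of them helicases. Of these, gene_17109 and gene_17110, neighbours described as a pre-mRNA-splicing factor ATP-dependent RNA helicase named PRP43, a protein of spliceosome disassembly and ribosome assembly in yeast, fell further than any member. In CK gene_17109 had 34.6, 35.0 and 39.5 CPM, in MHT 10.4, 10.8 and 8.04 CPM and in SHT 9.82, 6.44 and 5.74 CPM. It fell by 1.89 on the log2 scale in MHT&CK and by 2.30 in SHT&CK (edgeR adjusted p = 0.000497 and 5.98e-05), and gene_17110 stood at -1.80 and -2.04 (edgeR adjusted p = 0.00117 and 0.000182). The other helicase left out, gene_1075, stood at -0.51 and -0.39 without passing, and gene_9208, an rRNA-processing protein named utp10, at -0.12 and -0.78, also without passing.

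Of the 5 other unigenes of mRNA decay and deadenylation, 0 were DEGs against CK in edgeR or DESeq2, and 1 had an unadjusted p under 0.05, in SHT&CK. This unigene, gene_25390, a Not1-domain protein of the kind that scaffolds deadenylation, had 65.2, 81.3 and 59.6 CPM in SHT and 116, 115 and 98.5 CPM in CK (-0.68, edgeR adjusted p = 0.0185). Of 5 further unigenes with splicing or RNA-binding domain names, 0 were DEGs against CK in edgeR or DESeq2, and 1 had an unadjusted p under 0.05, in MHT&CK. This CCCH zinc finger protein, gene_16702, was lower in MHT&CK (-0.57, edgeR adjusted p = 0.0324) and stood at -0.15 in SHT&CK. Another class of RNA-processing genes, ribosome biogenesis, had 21 tested unigenes with a median of 0.49 for MHT&CK and of 0.67 for SHT&CK. By adjusted p 6 and 12 of them were higher and 0 lower in edgeR, and 6 and 11 were higher and 0 lower in DESeq2. An unadjusted p under 0.05 in edgeR was found for 8 and 13. Over all 13018 tested unigenes 4040 and 6475 had an unadjusted p under 0.05, and 7.5% and 20.4% were higher by adjusted p. The difference between this class and the members was not tested.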

How the data were processed

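RNA-seq was run on mycelia in 3 groups of 3 libraries, grouped by the submitters' sample labels. Per the labels and the study's methods, the authors used fastp for trimming, Bowtie2 against rRNA, HISAT2 for alignment and StringTie for assembly and counting; tool versions and strand use were not given in the sources used here, so overlapping or antisense transcripts cannot be told apart. The authors deposited raw counts, in whole numbers, of 13953 unigenes with a description of the best protein match. No genome, coordinates or sequences were used here.

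Unigenes with a 0 in any of the 9 libraries, 935 in number, were left out and 13018 were tested, a filter taken from the study's methods; it left out 1 of the 55 members. Tested members had 6 to 5632 counts per library, with a median mean count of 135. Counts were scaled by TMM (factors 0.87 to 1.11) and fitted in 1 model of group with edgeR 4.0.16 (R 4.3.3; quasi-likelihood, robust), and p-values were adjusted by Benjamini-Hochberg over all tested unigenes. The common biological coefficient of variation was 0.221. The test was first run on simulated data with known changes. Distances are Euclidean, in log2 CPM with a prior count of 2. Alternatives were DESeq2 1.42.0, other scaling factors, other filters on low counts, 2 groups per fit, a replicate block, leaving out each library, other thresholds and summing neighbouring unigenes of 1 description.

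Members and gene lists were chosen with earlier results of these data known. The named unigenes were the DEGs, the 3 of most counts and the 1 of largest change in each role, the untested member, those the study named and the 3 steady ones of most counts; others were named after their values were seen. Roles came from patterns in the descriptions. After the values were seen, decapping enzymes, which matched the pattern for capping, were set apart as cap removal, CET1 was moved to cap formation, and the snRNP role was named for U4/U6 and the tri-snRNP.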

Additional observations from a re-analysis of the deposited data

How the results depend on the processing

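The counts of DEGs among the members depended on the minimum fold and on single libraries. With the adjusted p alone they were 2 higher and 6 lower in MHT&CK, 8 and 12 in SHT&CK, with 2 lower in SHT&MHT. Without scaling factors, which moved the median log2 fold change of all tested unigenes to 0.14 in MHT&CK, 0.28 in SHT&CK and 0.12 in SHT&MHT, 1 member was a lower DEG in SHT&CK in place of 4, 6 were higher DEGs in place of 4 (with gene_22323 at 1.24 and gene_24792 at 1.08), 1 was a higher DEG in SHT&MHT, and the members' median was 0.06 in MHT&CK, 0.40 in SHT&CK and 0.15 in SHT&MHT. In that setting gene_4698, gene_3470 and gene_3856 stood at -0.78, -0.92 and -0.84 in SHT&CK. By adjusted p alone 3 members were then higher and 5 lower in MHT&CK, 15 and 10 in SHT&CK, and for SHT&MHT 5 and 0. Over all tested unigenes the same setting gave 2284 higher and 850 lower DEGs in SHT&CK, in place of 1408 and 1413. With both MHT3 and SHT2 left out, a setting chosen after seeing the data, MHT&CK had 0 higher DEGs, and SHT&MHT had 1 higher (gene_13815, 1.50) and 1 lower (gene_4699, -1.04). By adjusted p alone SHT&MHT then had 11 higher and 4 lower members, and 10 and 4 without MHT3 alone. Over all tested unigenes the SHT&MHT DEGs were 363 higher and 373 lower in the main fit. They were 778 and 770 without both libraries, and 650 and 778 without MHT3 alone. Leaving out 1 library at a time gave 0 to 1 higher and 0 to 1 lower DEGs in MHT&CK, 2 to 5 and 3 to 7 in SHT&CK, and for SHT&MHT 0 to 1 and 0 to 2. DESeq2 called 4 higher and 6 lower members in SHT&CK, and its lower calls included gene_3467 and gene_7601.

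A replicate block left the counts at 1 and 0 in MHT&CK, 4 and 4 in SHT&CK and, for SHT&MHT, 0 and 0. The replicate numbers did not pair the libraries: deviations of same-numbered libraries correlated at -0.227 to 0.442, over 0.1 in 1 of 9 pairs. By adjusted p alone the block gave 2 higher and 5 lower members in MHT&CK, 7 and 12 in SHT&CK, and for SHT&MHT 0 and 0. It lost gene_5313 and gene_518 in MHT&CK (edgeR adjusted p = 0.0514 and 0.079), gene_24792 in SHT&CK (0.0717), and gene_4698 and gene_4699 in SHT&MHT (0.0587 and 0.067).

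No value of a named unigene that was called reversed its direction under any alternative. Of 3171 single values, 3105 kept their side of the threshold or their level, 22 lost and 31 gained a call, and 13 moved. Most of these values belonged to unigenes not called in the main fit, so the 3105 do not measure how stable the calls were. Of the 8 members that were DEGs in SHT&CK, only gene_943 and gene_4699 kept the call in every alternative fit. The causes of these shifts were not tested. The nonzero-count filter and about 135 counts for a typical member limit what can be seen: a member with few counts, such as gene_7601, can differ without passing in the main fit.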

Other observations

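Transcripts of steps before and after splicing were read from lists of descriptions outside the members. Of 23 unigenes of RNA polymerase II and Mediator, the machinery that makes and regulates pre-mRNA, 22 were tested. The log2 fold change was negative for 17 in MHT&CK and for 16 in SHT&CK. Their median log2 fold change was -0.53 in MHT&CK and -0.45 in SHT&CK, against 0.00 and 0.01 over all tested unigenes. By adjusted p in edgeR 1 was lower in MHT&CK, and 5 were lower and 1 higher in SHT&CK, where 1 was a lower DEG. Lower by adjusted p were thus 4.55% of the list in MHT&CK and 22.7% in SHT&CK, where 7.41% and 19.7% of all tested unigenes were. MHT3 was the lowest MHT library in 19 of the 22 and SHT2 the lowest SHT library in 15, and without both the list's median was -0.35 in MHT&CK and -0.29 in SHT&CK. Of the 22, 11 were described as rpb1 or as a largest or second largest subunit. Besides these, gene_25703 and gene_25704 were described as subunit 1, another name of the largest subunit. Several of these unigenes had neighbouring numbers, and whether they are pieces of the same genes was not tested. Of 17 unigenes of the nuclear pore and nuclear transport, 4 (23.5%) were lower by adjusted p in SHT&CK, 1 of them a DEG, and their median was 0.05 in MHT&CK and -0.25 in SHT&CK.

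The study named 2 further unigenes from these libraries as subunits of THO, a complex that links transcription to mRNA export, so their direction is no independent evidence. The first, gene_827, had 14.1, 13.3 and 17.2 CPM in CK, 15.0, 11.7 and 3.42 CPM in MHT and 6.29, 2.84 and 3.89 CPM in SHT, at -1.76 in SHT&CK (log2, edgeR adjusted p = 0.00905). The second, gene_828, had 17.6, 31.8 and 32.8 CPM in CK, 22.3, 23.1 and 7.43 CPM in MHT and 14.4, 5.11 and 9.44 CPM in SHT, at -1.50 in SHT&CK (edgeR adjusted p = 0.0211). In both, MHT3 lay inside the SHT range while MHT1 and MHT2 did not. The call on gene_828 was lost without CK2, CK3, SHT2 or SHT3, at -1.48 to -1.21 (edgeR adjusted p = 0.053 to 0.0693). The 2 unigenes with THO in their own description, both counted above with the nuclear pore and transport, did not pass. In SHT gene_1231 had 7.21, 5.49 and 8.70 CPM, against 4.10, 4.24 and 4.80 CPM in CK (0.70, edgeR adjusted p = 0.113), and gene_23673 had 53.1, 51.5 and 56.6 CPM, against 45.1, 48.3 and 50.2 CPM (0.17, edgeR adjusted p = 0.419). Both lay above CK without overlap in SHT.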
